A study of Mus musculus with 31 samples.

Results

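The 9 genes Itgam, Itgax, Itgb2, Itgal, Itga4, Selp, Sele, Icam1 and Vcam1 encode the integrin chains, selectins and ligands by which leukocytes hold on to and cross the vessel wall. They were chosen by symbol among the 22609 gene symbols of the count tables, and all 9 were present. Their levels were read in the masseter muscle (MM) of 31 mice, 1 library per mouse, and each treated group was compared with its own vehicle group.

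Leukocytes leave the blood in steps. P-selectin and E-selectin, encoded by Selp and Sele, appear on activated endothelium and let leukocytes roll. Integrins on the leukocyte then bind ligands on the endothelium and arrest the cell. Itgb2 encodes the beta2 chain (CD18) that pairs with the alpha chains of Itgal (CD11a, in LFA-1), Itgam (CD11b, in Mac-1) and Itgax (CD11c), and Icam1 is a ligand of LFA-1 and Mac-1. Itga4 encodes the alpha4 chain of VLA-4, whose ligand is Vcam1. CD11b is used as a marker of neutrophils, monocytes and macrophages, and CD11c as a marker of dendritic cells that some macrophages carry too.

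All mice were adult C57BL/6J males, and the MM was injected with complete Freund's adjuvant (CFA), an oil emulsion with killed mycobacteria that provokes inflammation, with collagenase type 2 (Col), an enzyme that digests the collagen of the tissue, or with vehicle. The CFA experiment has 3 mice at 1d, 3 mice at 5d and 3 vehicle-treated mice. The Col experiment has 4 mice each in the 0.2U groups labelled 1C and RPC, 4, 3 and 4 mice in the 10U groups labelled 2d, 6d and 12d, and 3 vehicle-treated mice that all 5 Col groups share as their reference. The labels and the paper's text give different days for the first and the last of the 10U groups, and the days of the labels are used here. The labels do not give the days of the 1C and RPC groups or of the vehicle groups, and the titles of the 6d libraries follow another pattern than those of the other Col groups. Whole muscle was sequenced, so a change in the number of cells of a type and a change in RNA per cell cannot be told apart.

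Each library held between 14843778 and 29076671 reads on genes. Muscle genes were abundant in every library, with 8970 to 55630 CPM (reads of a gene relative to all reads of its library, scaled by TMM) of Acta1, the skeletal muscle actin. Their level was lower at 2d and 6d after 10U Col. The 7 muscle genes read summed to 32160 to 55550 CPM at 2d and 36060 to 57550 CPM at 6d, below all 3 mice of the Col vehicle group (90410 to 138500 CPM), and Ckm and Myh4 passed the test at 6d. The part of this in the changes at 2d and 6d was not tested. Libraries of the same group differed in other tissues. The summed level of 7 salivary gland genes ran from 12.1 to 38.6 CPM at 6d post-Col (10U), from 128900 to 161700 CPM at 5d post-CFA and from 87.4 to 144100 CPM in the vehicle group of the Col experiment. The summed level of 8 genes of immature granulocytes, which belong to bone marrow (Elane, Mpo, Prtn3, Ctsg, Ngp, Camp, Ltf and Chi3l3), was 198, 9.38 and 983 CPM in the Col vehicle group and 2.14, 4.33 and 595 CPM in the CFA vehicle group. It was 2.41 to 4.19 CPM at 6d post-Col (10U) and 3.98 to 7.35 CPM at 5d post-CFA, and no gene of the list was at 0 in all mice of a group. Ltf, lactoferrin, is also made by glands, and it held 99.6% of the sum in mouse 3 of the RPC group. In the CFA vehicle group the mouse with bone marrow genes had more Itgam, Itgax, Itgb2 and Itgal than the other 2 mice. The same held in the Col vehicle group for the mouse with the most of these genes. Counting also differed: ambiguous reads were 0.331 to 0.399% in the 11 libraries of the 10U groups and 0.076 to 0.138% in the other 20, their vehicle group included. A total of 29 symbols were over 2 times higher and 9 over 2 times lower in every 10U library than in all others, and none of the 9 genes was among them. This difference and the 10U treatment cannot be told apart.

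Positions are those of build mm9. Selp (chromosome 1, 166045395 to 166080157) and Sele (chromosome 1, 165978365 to 165987808) lie close together on the plus strand, as do Itgam (chromosome 7, 135206154 to 135271674), Itgax (chromosome 7, 135273061 to 135294171) and, farther off, Itgal (chromosome 7, 134439774 to 134478651). Itgb2 lies on chromosome 10 (76992997 to 77028453), Itga4 on chromosome 2 (79095583 to 79173280), Icam1 on chromosome 9 (20820404 to 20833241), all on the plus strand, and Vcam1 on the minus strand of chromosome 3 (115812938 to 115832606). Itgax shares 9.63% of its 50-base windows with its neighbour Itgad, so reads from these stretches may be missing from its counts, while Itgad itself reached at most 0.859 CPM in any library. For the other 8 genes the shared part was at most 0.21%. Cerkl, on the opposite strand beside Itga4, reached at most 0.466 CPM.

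Promoter windows of RefSeq (GRCm38.p6), from 250 bases before the start of the gene to 30 after it, were available for 6 of the 9 genes and are shown for the pairs that lie side by side (Sele and Selp, Itgam and Itgax) and for Icam1. Capitals mark matches on either strand to the NF-kB consensus, TTCNNNGAA (bound by STAT factors), GAGGAAG (bound by PU.1) and TATAAA (the letters of the TATA box).
Sele (chr1:164047984-164048263, plus strand): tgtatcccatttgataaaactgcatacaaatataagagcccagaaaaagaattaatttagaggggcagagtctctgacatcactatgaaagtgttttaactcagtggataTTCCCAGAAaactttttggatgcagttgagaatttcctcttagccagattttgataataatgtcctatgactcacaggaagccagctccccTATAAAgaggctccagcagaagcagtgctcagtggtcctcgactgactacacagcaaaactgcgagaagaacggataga
Selp (chr1:164115014-164115293, plus strand): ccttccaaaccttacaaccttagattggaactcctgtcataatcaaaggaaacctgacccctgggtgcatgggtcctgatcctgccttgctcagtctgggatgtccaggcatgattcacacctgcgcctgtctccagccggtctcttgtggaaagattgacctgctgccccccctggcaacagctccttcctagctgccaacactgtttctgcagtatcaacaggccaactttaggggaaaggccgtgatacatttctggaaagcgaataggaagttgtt
Itgam (chr7:128062390-128062669, plus strand): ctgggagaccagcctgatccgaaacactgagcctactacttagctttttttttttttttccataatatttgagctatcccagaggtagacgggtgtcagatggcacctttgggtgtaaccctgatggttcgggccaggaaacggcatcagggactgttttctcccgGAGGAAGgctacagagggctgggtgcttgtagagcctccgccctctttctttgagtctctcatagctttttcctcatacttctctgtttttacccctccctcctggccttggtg
Itgax (chr7:128129300-128129579, plus strand): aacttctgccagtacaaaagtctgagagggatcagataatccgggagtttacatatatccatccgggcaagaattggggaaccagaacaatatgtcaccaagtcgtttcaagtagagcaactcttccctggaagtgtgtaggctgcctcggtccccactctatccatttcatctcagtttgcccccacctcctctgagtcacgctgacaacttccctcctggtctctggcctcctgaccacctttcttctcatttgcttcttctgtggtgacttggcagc
Icam1 (chr9:21015690-21015969, plus strand): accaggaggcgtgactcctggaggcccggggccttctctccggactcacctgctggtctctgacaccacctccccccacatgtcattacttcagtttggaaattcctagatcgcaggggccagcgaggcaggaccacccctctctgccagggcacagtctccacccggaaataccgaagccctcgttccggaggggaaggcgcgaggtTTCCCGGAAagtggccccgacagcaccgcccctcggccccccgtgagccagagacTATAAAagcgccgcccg
Sele and Icam1 each held TTCNNNGAA (7.83% of 32851 promoter windows of this length) and TATAAA (13.1%), and Itgam held GAGGAAG (12.2%). TATAAA began at offset -49 from the start of the gene in Sele and at offset 13, after the start, in Icam1. Neither Selp nor Itgax held any of the searched patterns, and the NF-kB consensus (7.94%) was in none of the 5. Only exact matches to each pattern were searched, so NF-kB sites spelled otherwise would not be found. The matches are of letters and are not sites of binding.

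Per transcript length, Itgb2 and Icam1 were the most abundant of the 9, with a median over the 31 libraries of 5.75 and 4.67 RPKM, which scales reads by exon length and depth. Itga4 (3.05 RPKM), Vcam1 (2.94 RPKM) and Itgam (2.52 RPKM) followed. Selp (0.931 RPKM), Itgax (0.732 RPKM), Itgal (0.385 RPKM) and Sele (0.236 RPKM) were low, and Sele rested on 2 to 83 counts per library.

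Itgax was the member that rose at 6d post-Col (10U). Its level was 13.4, 14.6 and 8.75 CPM in the 3 mice at 6d and 0.392, 1.06 and 2.37 CPM in the vehicle-treated mice. These groups did not overlap, as was so for 26% of all genes in this direction. All 3 mice at 6d lay above every other mouse of the study, the next being 8.51 CPM in 1 mouse at 12d. The share of all genes placed in this way was not computed. The log2 fold change was 3.21 ± 0.59 (SE), a 9.27-fold difference (quasi-likelihood test of edgeR, adjusted p = 0.0111 by Benjamini-Hochberg over 14281 genes). It was 1 of the 9 genes to pass (adjusted p under 0.05) in this comparison, in which 27.3% of all tested genes passed and 14% did so upward. Itgax passed under all 15 alternatives (adjusted p 2.88e-07 to 0.0482). Among these, leaving out vehicle mouse 3 and leaving out the libraries highest in bone marrow genes gave the same fit. Of the 10 monocyte and macrophage genes tested, 9 rose in the same comparison, with a summed level of 1340 to 2646 CPM at 6d against 137 to 478 CPM in the vehicle group, and of the 7 dendritic cell genes 3 (Flt3, Xcr1 and Clec9a) rose, with 16.6 to 20.6 CPM against 9.38 to 12.9 CPM. The part of these cells in the level of Itgax was not tested.

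Itgax was also higher at 6d than at 2d post-Col (10U). The 4 mice at 2d had 4.15, 5.02, 4.67 and 1.81 CPM, all below the mice at 6d, as was so for 11.6% of all genes. The difference was 1.67 ± 0.36 (SE) on the log2 scale (edgeR, adjusted p = 0.0336), and Itgax was 1 of the 9 genes to pass where 8.73% of all genes did, 4.68% upward. This call did not hold when any of the 3 mice at 6d, or mouse 1 or 2 at 2d, was left out, nor in 1 fit over all 31 libraries, nor with salivary gland and bone marrow scores as covariates (adjusted p up to 0.158). At 12d the 4 mice had 0.770, 0.734, 2.96 and 8.51 CPM, and no mouse overlapped those at 6d, as was so for 18.7% of all genes in this direction. The difference of -1.88 ± 0.76 (SE) did not pass (edgeR, adjusted p = 0.0972). Without mouse 4, which stood apart with a summed macrophage marker level of 1003 CPM against 143 to 285 CPM in the other 3, the difference was -3.02 ± 0.49 (edgeR, adjusted p = 0.00186, with 54.2% of all genes passing). Mouse 4 also had the highest Itgax at 12d and was singled out after the data had been seen, so its absence enlarges the difference.

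In the CFA experiment Itgax was 4.03, 5.27 and 8.19 CPM at 5d and 0.404, 0.593 and 1.29 CPM in the vehicle group. The groups did not overlap, as was so for 12.8% of all genes in this direction. The log2 fold change of 2.95 ± 0.53 (SE) fell just short of the threshold with edgeR (adjusted p = 0.0565) and passed with DESeq2 (adjusted p = 1.92e-05). It passed under 4 of 15 alternatives, DESeq2 among them, with an adjusted p of up to 0.371 in the others. At 1d post-CFA mouse 2 had the lowest Itgax level of the study, 0.311 CPM, beside 4.25 and 5.09 CPM in the other 2. The 0.2U groups ranged from 2.00 to 3.45 CPM (1C) and from 1.77 to 4.33 CPM (RPC) and overlapped their vehicle group. In the order of group means, Itgax was highest at 6d post-Col (12.2 ± 3.06 CPM, SD, n = 3), then at 5d post-CFA (5.83 ± 2.14, n = 3), 2d post-Col (3.91 ± 1.45, n = 4), 12d post-Col (3.24 ± 3.66, n = 4), 1d post-CFA (3.22 ± 2.55, n = 3), the 1C group (2.75 ± 0.62, n = 4), the RPC group (2.61 ± 1.18, n = 4) and the vehicle groups of Col (1.28 ± 1.01, n = 3) and CFA (0.762 ± 0.466, n = 3). Of neighbours in this order, 6d post-Col and 5d post-CFA alone did not overlap. They come from different experiments, and the share of all genes for which this holds was not computed.

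**Figure D1:**
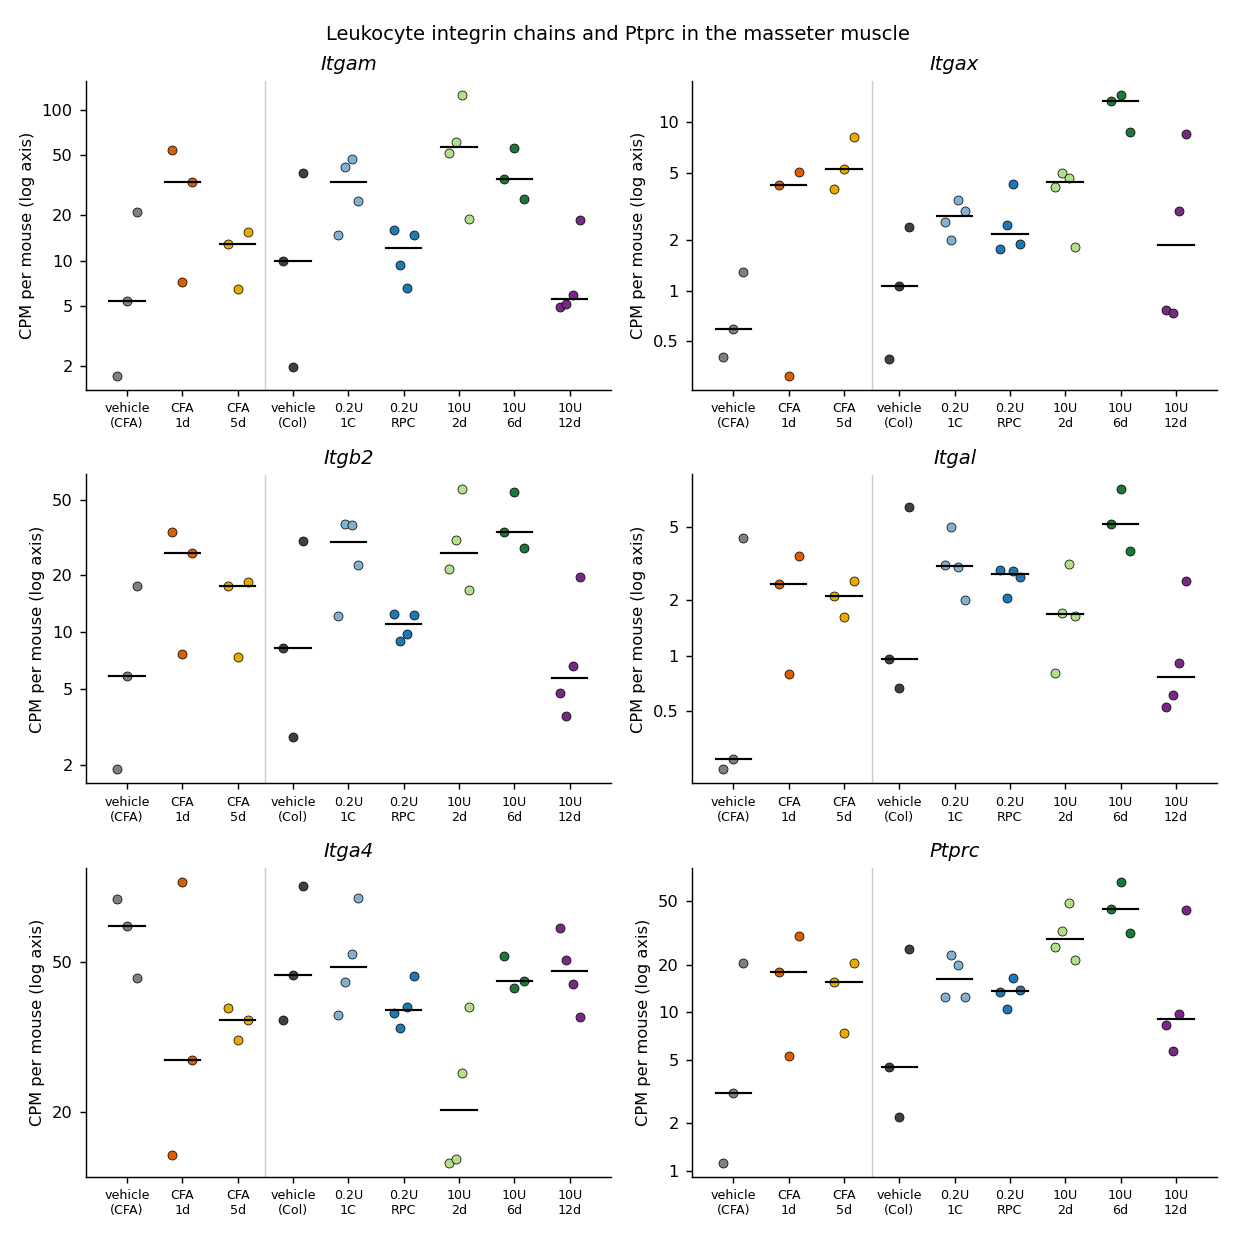
CPM of the 5 integrin genes and of Ptprc, the leukocyte antigen CD45, in each mouse (points, log axis) by group, with the median of each group as a line and the CFA experiment left of the grey line. Itgax lies at 8.75 to 14.6 CPM at 6d post-Col (10U), above all other mice, while the vehicle groups of Itgam, Itgb2 and Itgal each hold 1 mouse far above the other 2.

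Itgam, Itgb2 and Itgal did not pass the test against vehicle in any group, and their vehicle groups were uneven. Itgam was 9.94, 2.00 and 38.4 CPM in the Col vehicle group and 1.74, 5.43 and 21.2 CPM in the CFA vehicle group. In each group the highest value belonged to mouse 3, the mouse with the most bone marrow genes. After 10U Col, Itgam was 52.1, 61.6, 125 and 19.0 CPM at 2d, 34.8, 56.2 and 25.6 CPM at 6d, and 4.95, 5.20, 5.93 and 18.6 CPM at 12d. Its group mean was highest at 2d, where 3 of 4 mice were above every vehicle-treated mouse. Neutrophil genes, 7 in number, summed to 65.3 to 243 CPM at 2d, 12.8 to 17.1 CPM at 6d and 8.57 to 91.6 CPM at 12d, against 6.65 to 737 CPM in the vehicle group, and the part of neutrophils in the level of Itgam was not tested.

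From 6d to 12d post-Col (10U) Itgam, Itgb2 and Itgal fell together, and no mouse at 12d overlapped a mouse at 6d, as for 18.7% of all genes in this direction. Itgb2, the shared beta chain, was 33.7, 55.1 and 28.0 CPM at 6d and 4.81, 3.61, 6.68 and 19.6 CPM at 12d. Itgal was 5.16, 8.08 and 3.69 CPM at 6d and 0.529, 0.612, 0.916 and 2.53 CPM at 12d. For each gene mouse 4 at 12d was the one nearest to the 6d group, so leaving it out enlarges the difference. The log2 fold change was -2.14 ± 0.51 (SE) for Itgam (edgeR, adjusted p = 0.0242), -2.14 ± 0.56 for Itgb2 (adjusted p = 0.0304) and -2.26 ± 0.55 for Itgal (adjusted p = 0.0261). With Icam1, described further on, 4 of the 9 genes passed, all downward, where 26.4% of all genes passed and 13% did so downward. Without mouse 4 at 12d 7 of the 9 passed, all lower at 12d, and 54.2% of all genes passed. Without mouse 3 at 6d 3 did, Itgam, Itgal and Icam1 (13.8% of all genes), and without any 1 of the other 5 mice edgeR called none of the 9 (1.66 to 9.44%). Of the 10 monocyte and macrophage genes 4 fell from 6d to 12d, with a summed level of 143 to 1003 CPM at 12d.

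Leaving out vehicle mouse 3 changed the account of 6d post-Col (10U). With all mice, Itgam, Itgb2 and Itgal had adjusted p-values above 0.05 in edgeR's test. Without that mouse 7 of the 9 genes were higher at 6d and passed (Itgam, Itgax, Itgb2, Itgal, Sele, Icam1 and Vcam1), where 41.5% of all genes passed, against 27.3% with it. Their log2 fold changes ran from 0.92 for Icam1 to 4.10 for Itgax (edgeR, adjusted p 0.00508 to 0.0469), and Itgal, at 0.959 and 0.665 CPM in the 2 mice left in the vehicle group, was 6.66-fold higher at 6d. In the CFA experiment the vehicle mouse with bone marrow genes had a like weight. Without it 4 genes were higher at 5d post-CFA, Itgam by 3.46-fold, Itgax by 12.3-fold, Itgb2 by 3.96-fold and Itgal by 8.40-fold, and Itga4 was lower (edgeR, adjusted p 0.000695 to 0.0423, with 15.6% of all genes passing). Each of the mice was left out in turn, and these were singled out after the data had been seen. They are the mice whose absence gave the most genes passing, in a range of 1 to 7 at 6d post-Col and 0 to 5 at 5d post-CFA. Vehicle mouse 3 of the Col experiment had the highest level of all 9 genes in its group, so its absence lowers each reference mean. In the CFA vehicle group the mouse left out had the highest Itgam, Itgax, Itgb2 and Itgal and the lowest Itga4. Its absence thus enlarges each of these differences. The part of bone marrow in the vehicle groups was not tested.

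**Figure D2:**
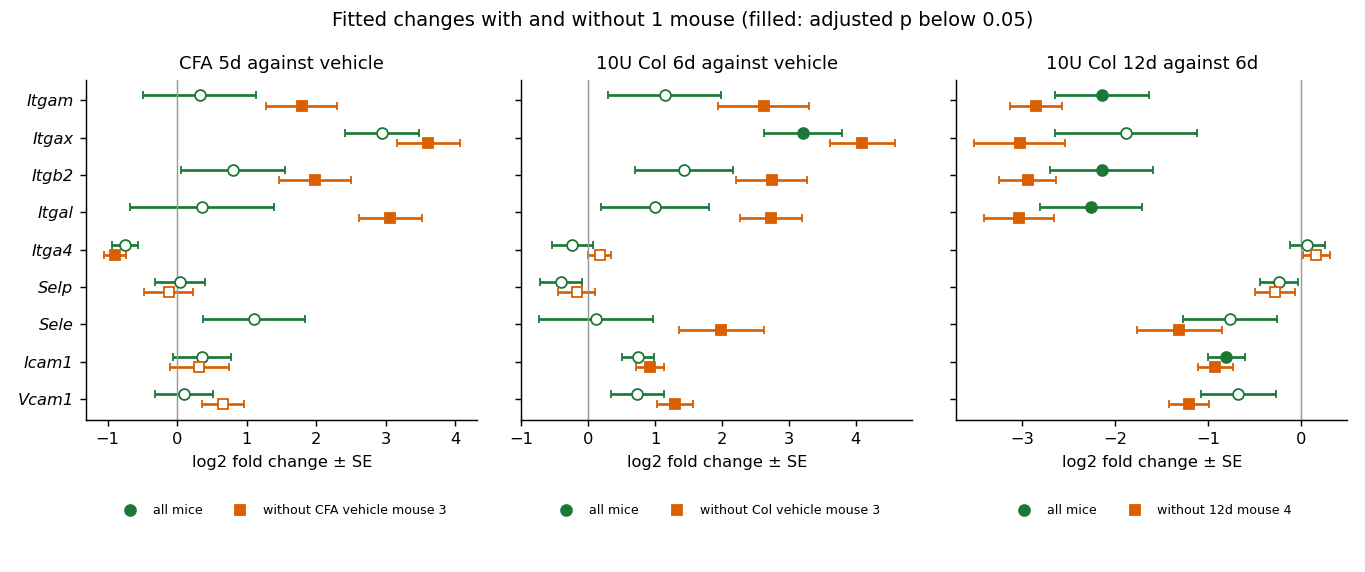
Fitted log2 fold changes with their standard errors for the 9 genes, with all mice (green circles) and without 1 mouse (orange squares), at 5d post-CFA and 6d post-Col (10U) against vehicle and at 12d against 6d. Filled symbols have an adjusted p below 0.05: 1 of 9 with all mice and 7 of 9 without vehicle mouse 3 at 6d. The mouse left out in each panel is the 1 whose absence gave the most genes passing. With every mouse left out in turn, 0 to 5, 1 to 7 and 0 to 7 genes passed, from left to right. Sele had too few counts to be tested at 5d post-CFA without the vehicle mouse.

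In the 0.2U groups none of the 9 genes passed, and 0% of all genes did in edgeR's test in either group. Each gene overlapped its vehicle group, where 4.22% of all genes were clear of it upward and 6.13% downward in the 1C group, and 4.79% and 7.21% in the RPC group. Itgam was 14.9, 42.0, 47.3 and 24.9 CPM in the 1C group and 16.1, 9.40, 6.66 and 14.8 CPM in the RPC group. Without Ltf, the other 7 immature granulocyte genes summed to 185.5 to 558 CPM in the 1C group and to 139 to 187 CPM in 3 mice of the RPC group, and mouse 3, with the lowest Itgam, had 2.16 CPM. Of the 9 genes 0 had an unadjusted p under 0.05 in the 1C group (12.6% of all genes) and 1, Selp, in the RPC group (13.5%), and DESeq2 called 0 in each (3.58% and 2.75% of all genes).

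Itga4 was lower, not higher, at 5d post-CFA and 2d post-Col (10U), although it did not pass the test. It was abundant in the vehicle groups, with 73.7, 62.3 and 45.5 CPM in the CFA experiment and 35.1, 46.2 and 79.6 CPM in the Col experiment. Over the 31 libraries Itga4 had a Pearson r of -0.403 with Ptprc, the pan-leukocyte gene. Itgam, Itgax, Itgb2 and Itgal had 0.805 to 0.907. Which cells held the RNA of Itga4 was not tested. At 5d post-CFA Itga4 was 37.8, 31.02 and 35.2 CPM, below every vehicle-treated mouse. On the log2 scale this was -0.75 ± 0.19 (SE), and it did not pass (edgeR, adjusted p = 0.126). The groups did not overlap in this direction for 6.89% of all genes. DESeq2 gave an adjusted p of 0.00772. Itga4 passed under 3 of 15 alternatives, DESeq2 among them, with an adjusted p of up to 0.906 in the others.

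At 2d post-Col (10U) Itga4 was 14.7, 15.1, 25.4 and 38.1 CPM, and mouse 4 alone overlapped the vehicle group. At 6d it was 51.9, 42.7 and 44.7 CPM, above every mouse at 2d, with a difference of 1.01 ± 0.34 (SE) on the log2 scale (edgeR, adjusted p = 0.106, DESeq2 adjusted p = 0.0396). No mouse overlapped, as for 11.6% of all genes in this direction. Mouse 4 at 2d had the lowest Itgam, Itgax, Itgb2, Selp, Sele and Icam1 of its group and the highest Itga4. It was singled out after these values had been seen, and leaving it out lowers the mean of Itga4 at 2d. With all mice the fall of Itga4 at 2d against vehicle did not pass (edgeR, adjusted p = 0.0914). The fall passed without mouse 4 (-1.59 ± 0.37, edgeR, adjusted p = 0.0160, with 36.3% of all genes passing). None of the 9 genes passed at 2d against vehicle when any other mouse was left out. Between 6d and 2d 5 of the 9 genes passed without mouse 4, where 28.8% of all genes did. These were Itga4, Itgax and Itgal, higher at 6d, and Selp and Sele, lower at 6d. Itgal, at 0.809, 1.71, 3.16 and 1.65 CPM at 2d, was below its 6d level in all mice, with a difference of 1.63 ± 0.47 (SE) in the test with all mice (edgeR, adjusted p = 0.0700). At 1d post-CFA Itga4 was 15.5, 81.6 and 27.6 CPM, so that mouse 2, the mouse with the lowest Itgam, Itgax, Itgb2, Itgal, Selp, Sele and Icam1 of its group, had the highest Itga4 of the study. The levels at 12d, 61.7, 50.8, 43.7 and 35.8 CPM, lay within the range of the vehicle group. Itga4 was thus the 1 member with its lowest group mean at 2d post-Col, where the mean was 23.3 ± 11.1 CPM (SD, n = 4) against 53.6 ± 23.2 CPM in the vehicle group.

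Selp was highest at 1d post-CFA. The 3 mice had 36.0, 11.03 and 31.6 CPM, and the vehicle group had 5.05, 11.1 and 5.19 CPM. Mouse 2 at 1d overlapped the highest vehicle-treated mouse, and the gene did not pass with edgeR, where none of the 9 genes and 0% of all genes passed, although 2 of the 9, Selp and Sele, had an unadjusted p under 0.05, as did 4.22% of all genes. DESeq2 called 1 of the 9, Selp (adjusted p = 0.0448), and 0.38% of all genes. By 5d the level was 6.46, 5.74 and 8.83 CPM, below every mouse at 1d, as was so for 12.1% of all genes, a fall of 1.86 ± 0.43 (SE) on the log2 scale (edgeR, adjusted p = 0.0481). Selp was 1 of 9 to pass in this comparison, where 5.84% of all genes passed and 0.99% did so downward. The call was lost when any mouse other than mouse 2 at 1d was left out (adjusted p up to 0.219). Without mouse 2 at 1d, Selp and Itgam both passed, lower at 5d (edgeR, adjusted p = 0.00206 and 0.0204), where 9.63% of all genes passed. That mouse had the lowest Selp and Itgam at 1d, so its absence enlarges both differences.

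After 10U Col, Selp was 9.11, 14.7, 6.49 and 4.04 CPM at 2d, and 3 of 4 mice were above the vehicle group of 4.92, 3.53 and 6.45 CPM. At 6d it was 3.57, 3.83 and 4.11 CPM and at 12d 2.60, 3.98, 2.96 and 3.35 CPM, within or below the range of the vehicle group. Platelets and their precursors also carry P-selectin. The summed level of 6 platelet and megakaryocyte genes was 43.3 to 170 CPM at 2d post-Col and 7.45 to 100.8 CPM in its vehicle group. Of these genes Pf4, platelet factor 4, was 25.5 to 108 CPM at 2d against 19.4 CPM or less in the vehicle group. It did not overlap, as was so for 13.4% of all genes in this direction. Of the 6 genes 2 had a fold change above 0 and none passed. At 1d post-CFA the sum was 13.2 to 44.1 CPM, and 5.09 to 67.7 CPM in the vehicle group. The part of platelets in the level of Selp was not tested.

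Sele was low throughout. It reached 3.03, 0.534 and 3.71 CPM at 1d post-CFA, 12 to 83 counts, against 0.363, 0.182 and 0.883 CPM in the vehicle group, 4 to 24 counts. After 10U Col it was 1.08, 1.94, 2.00 and 0.314 CPM at 2d and 0.0872, 0.266 and 1.43 CPM in the vehicle group. Mouse 2 at 1d post-CFA and mice 1 and 4 at 2d post-Col overlapped their vehicle groups. Sele had too few counts to be tested at 12d post-Col against vehicle and between the vehicle groups.

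**Figure D3:**
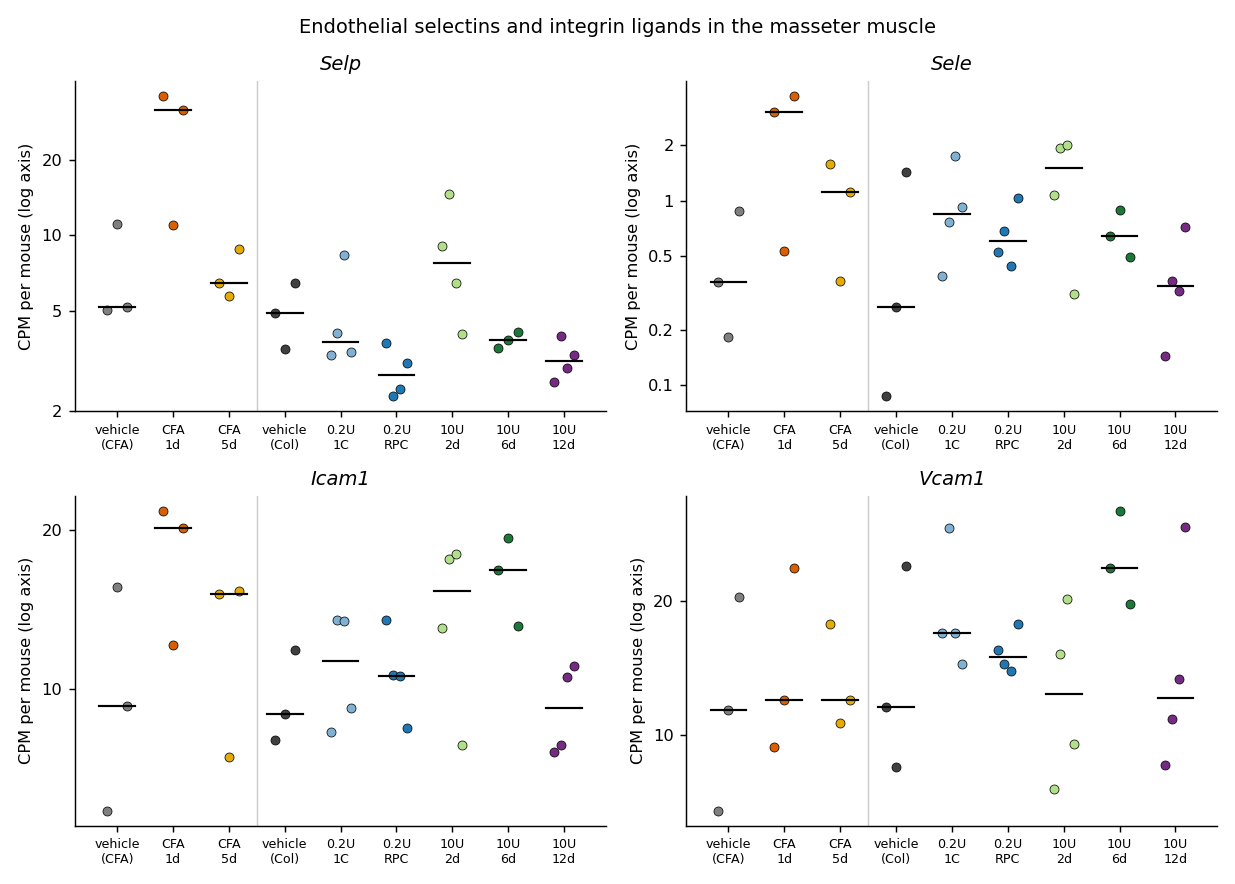
CPM of Selp, Sele, Icam1 and Vcam1 in each mouse (points, log axis) by group, with the median of each group as a line. Selp lies at 31.6 and 36.0 CPM in 2 of 3 mice at 1d post-CFA and at 5.74 to 8.83 CPM at 5d, and Icam1 at 13.2 to 19.3 CPM at 6d post-Col (10U), above its vehicle group.

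Icam1 was higher at 6d post-Col (10U) in every mouse, with 16.8, 19.3 and 13.2 CPM against 8.02, 8.98 and 11.9 CPM in the vehicle group. This was a 1.67-fold difference (log2 0.74 ± 0.24, SE) that missed the threshold narrowly (edgeR, adjusted p = 0.0517), and 26% of all genes were clear of the vehicle group in this direction. DESeq2 gave an adjusted p of 0.0273. Icam1 passed under 3 of 15 alternatives, DESeq2 among them, with an adjusted p of up to 0.2605 in the others. At 12d Icam1 was back at 7.60, 7.83, 10.6 and 11.04 CPM, a fall of 0.80 ± 0.20 (SE) from 6d that passed (edgeR, adjusted p = 0.0271), where 13% of all genes passed downward. This call did not hold under 8 of 14 alternatives (adjusted p up to 0.1135). Among these were 1 fit over all 31 libraries and salivary gland and bone marrow scores as covariates. At 2d Icam1 was 13.1, 17.6, 18.01 and 7.85 CPM, and again mouse 4 alone was not above the vehicle group.

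At 1d post-CFA Icam1 was 21.7, 12.1 and 20.1 CPM, its highest group mean, against 5.89, 15.6 and 9.31 CPM in the vehicle group, and at 5d 15.1, 7.46 and 15.3 CPM. Both overlapped the vehicle group. Vcam1 ranged from 6.74 to 32.04 CPM over the 31 libraries and passed in no comparison with all mice. Its highest group mean was at 6d post-Col, with 23.8, 32.04 and 19.7 CPM against 11.6, 8.45 and 24.1 CPM in the vehicle group, where the value of mouse 3 lay inside the 6d range. Vehicle mouse 3 thus had the highest Itgam, Itgax, Itgb2, Itgal, Itga4, Selp, Sele, Icam1 and Vcam1 of its group.

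Against the vehicle group, 0 of 9 genes passed at 1d post-CFA, 5d post-CFA and 2d post-Col (10U), where 0%, 1.11% and 2.22% of all genes passed, and 0 of 8 tested at 12d, where 1.23% did (edgeR). The unadjusted p was under 0.05 for 2, 2, 2 and 0 of the genes, and for 4.22%, 14%, 33.3% and 17.4% of all genes. DESeq2 called 1, 2, 1 and 0 of them, and 0.38%, 6.36%, 23.1% and 6.36% of all genes. At 2d these were Itgax and Itga4 by unadjusted p and Itga4 with DESeq2 (adjusted p = 0.0272). Between the vehicle groups of both experiments 0 of the 8 genes tested passed (edgeR, 0.0426% of all genes passed, 0 of the 8 and 2.32% of all genes had an unadjusted p under 0.05, and DESeq2 called 0 of the 8 and 0.462% of all).

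Whether the genes answered CFA and 10U Col differently was tested as an interaction. None of the 9 passed for 1d post-CFA against 2d post-Col (0.0946% of all genes passed) or for 5d post-CFA against 6d post-Col (11.3%), with 0 unadjusted p-values under 0.05 (6.83% and 28.9% of all genes) and 0 calls by DESeq2 (0.73% and 18.6%) in either. Without vehicle mouse 3 of the Col experiment 1 gene, Itga4, passed in the later of these tests, lower after CFA and near its vehicle level after Col (edgeR, difference 0.92 ± 0.27 on the log2 scale, adjusted p = 0.0427), where 18% of all genes did.

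The ratios of the genes within a mouse do not depend on how its library was scaled. Itgax relative to Itgam was 0.259 to 0.384 at 6d post-Col (10U) and 0.0373 to 0.0952 at 2d, and it was 0.310 to 0.815 at 5d post-CFA and 0.0427 to 0.153 at 1d. In each experiment the later mice lay above the earlier ones, and the vehicle groups spanned 0.0395 to 0.533 (Col) and 0.0608 to 0.233 (CFA). The share of other gene pairs for which this holds was not computed. Itgam relative to Ptprc, the pan-leukocyte gene, went the other way, at 0.886 to 2.55 at 2d and 0.776 to 0.849 at 6d post-Col, and 1.09 to 2.99 at 1d and 0.758 to 0.873 at 5d post-CFA, with 0.909 to 2.19 (Col) and 1.03 to 1.75 (CFA) in the vehicle groups. Itgal relative to Ptprc was 0.0315 to 0.0771 at 2d and 0.115 to 0.122 at 6d post-Col, both below the 0.2115 to 0.303 of the vehicle group, and Itgb2 relative to Ptprc overlapped between 2d and 6d. Itga4 relative to Ptprc was 3.19 to 21.0 in the Col vehicle group, 0.462 to 1.78 at 2d and 0.645 to 1.40 at 6d. In the CFA vehicle group it was 2.21 to 65.2.

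Ptprc itself was 44.8, 66.2 and 31.8 CPM at 6d post-Col and 4.53, 2.20 and 24.9 CPM in the vehicle group, with a log2 fold change of 2.11 ± 0.80 (SE) that did not pass (edgeR, adjusted p = 0.0850). Among the endothelial genes, Selp relative to Cdh5, the VE-cadherin of endothelium, was 0.0343 to 0.113 at 1d post-CFA and 0.0157 to 0.0253 in its vehicle group. In CPM these groups overlapped for Selp, and the vehicle mouse with the most Selp also had the most Cdh5 (438 CPM). Icam1 relative to Cdh5 was 0.0537 to 0.0874 at 6d post-Col and 0.0255 to 0.0470 in the vehicle group, although Icam1 is carried by leukocytes and other cells too. Cdh5 was 221 to 252 CPM at 6d and 252 to 315 CPM in the vehicle group, and the summed level of 8 endothelial genes was 637 to 761.8 and 791 to 1088 CPM. These ratios are given as values and were not tested, and how often ratios of other genes keep groups apart was not computed.

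**Figure D4:**
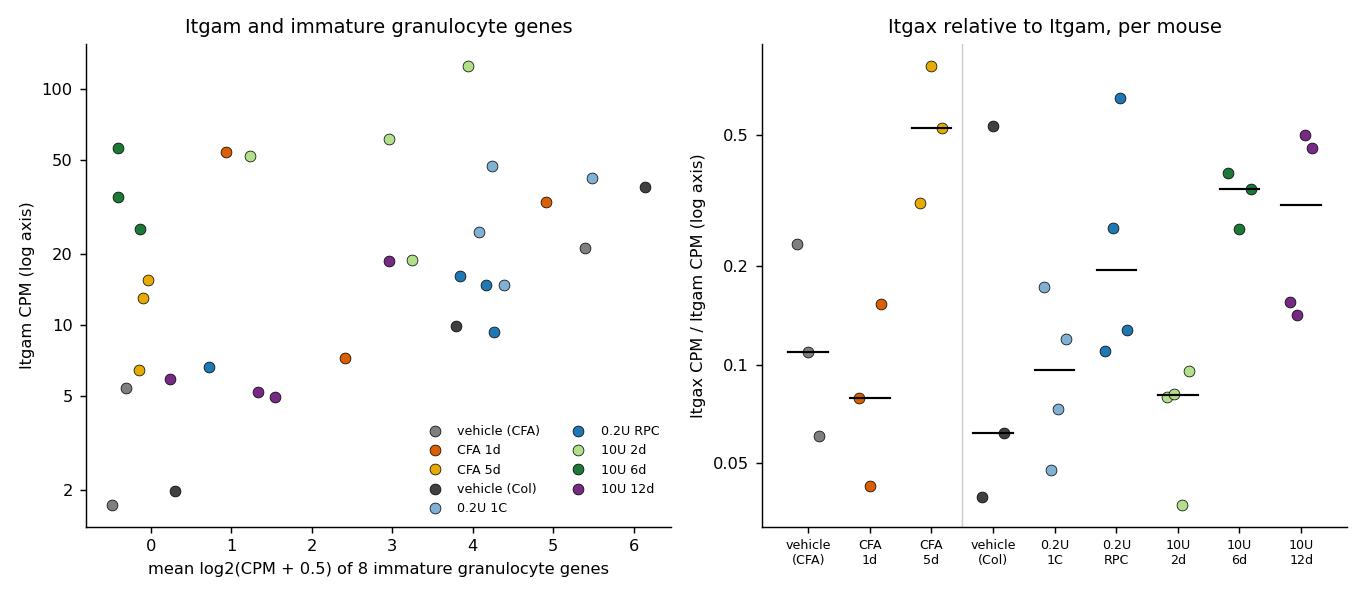
Left, Itgam CPM (log axis) against the mean log2(CPM + 0.5) of 8 immature granulocyte genes, a measure that 1 gene such as Ltf moves less than it moves their sum, in each of the 31 mice, and right, the ratio of Itgax to Itgam per mouse by group (log axis, line at the median). The mice at 6d post-Col (10U) have 25.6 to 56.2 CPM of Itgam with a granulocyte mean of -0.41 to -0.13, vehicle mouse 3 of the Col experiment has 38.4 CPM with a mean of 6.13, and the ratio lies at 0.259 to 0.384 at 6d and at 0.0373 to 0.0952 at 2d.

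The genes around this machinery were read as 4 lists, and in each comparison with vehicle other than 6d post-Col (10U) at most 1 gene of a list passed. Of the selectin ligands and the enzymes that glycosylate them, 16 of 20 were tested in each comparison with vehicle. At 6d 4 rose (Cd44, Fut4, St3gal4 and Chst2) and 1 fell, and the list's median was 0.05 on the log2 scale, beside 0.01 over all tested genes, and none passed in the other comparisons with vehicle. The genes with the largest rises were Fut4, a fucosyltransferase that helps make the selectin-binding sugar (3.40 to 6.30 CPM at 6d against 0.732 to 1.70 CPM, log2 fold change 1.75 ± 0.43, adjusted p = 0.0243), and Chst2, a sulfotransferase (9.91 to 19.2 against 3.79 to 6.25 CPM, 1.51 ± 0.32, adjusted p = 0.0164). St3gal6, a sialyltransferase, fell (33.5 to 75.7 against 120 to 215 CPM, -1.52 ± 0.34, edgeR, adjusted p = 0.0199).

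From 6d to 12d post-Col, 3 genes of this list fell, Chst2 among them, with Selplg, the P-selectin ligand of leukocytes, and Gcnt1. In that comparison 13% of all tested genes passed downward.

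Of the other integrin chains and the genes of integrin activation, 18 were tested at 6d, and 2 rose and 2 fell with a median of 0.70. The median was 0.77 at 1d post-CFA and 0.67 at 2d post-Col, where 14 and 15 of 18 fold changes were above 0 and none passed. Itgb1, the beta1 chain with which Itga4 pairs in VLA-4, rose (632 to 716 against 304 to 377 CPM, 0.94 ± 0.21, adjusted p = 0.0198), as did the alpha chain Itga9 (1.25 ± 0.34, adjusted p = 0.0341). Rasgrp2, an activator of Rap1, fell (-1.13 ± 0.31, adjusted p = 0.0326), and so did Cyth1, which binds the beta2 chain inside the cell (-0.88 ± 0.17, edgeR, adjusted p = 0.0132). Itga4 itself, at 51.9, 42.7 and 44.7 CPM at 6d, lay within the range of its vehicle group while its partner Itgb1 was clear of it. From 6d to 12d 6 genes of this list fell, among them Fermt3 (kindlin-3) and Tln1 (talin), which bind the beta chain and activate integrins, and Rasgrp2 and Cyth1 rose. Of all tested genes, 13% passed downward and 13.4% upward in that comparison.

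The other endothelial and junctional adhesion genes had 16 tested members, of which 2 rose and 3 (Icam4, Vwf and Esam) fell at 6d and 1, Vwf, fell at 2d. Their median at 6d was -0.28. Pvr rose the most (46.1 to 95.6 against 16.5 to 22.4 CPM, 1.87 ± 0.27, adjusted p = 0.00526), with Cd93 (0.80 ± 0.20, adjusted p = 0.0252). Icam4, an adhesion molecule of red cells, fell from 0.915 to 1.93 CPM to 0.172 to 0.274 CPM (-2.55 ± 0.50, adjusted p = 0.0133), and Vwf, the von Willebrand factor of endothelium, fell from 77.0 to 99.0 CPM to 44.5 to 44.8 CPM (-1.07 ± 0.17, edgeR, adjusted p = 0.00736). The 6 erythroid genes summed to 1.16 to 1.57 CPM at 6d and 6.19 to 91.5 CPM in the vehicle group, and Alas2, the heme enzyme of red cell precursors and the 1 gene of them tested, fell as well (log2 fold change -4.64), while the 4 globin symbols were at 0 in every library. Their part in the level of Icam4 was not tested.

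The subunits, inhibitors and targets of NF-kB, the factor that inflammatory signals activate, were the list with the most genes past the threshold. Of 15 tested, 9 rose and 2 fell at 6d with a median of 0.76, and Cebpb rose at 2d (median 1.04) and at 12d, the 1 gene to pass on each of these days. At 1d post-CFA the median was 0.65, with all 15 fold changes above 0 and none passing. At 6d Traf1 (3.98 to 6.57 against 1.197 to 1.84 CPM, 1.80 ± 0.34, adjusted p = 0.0123) and Bcl3 (12.3 to 15.6 against 3.40 to 4.70 CPM, 1.75 ± 0.23, adjusted p = 0.00400) rose, while Nfkbia, the inhibitor I kappa B alpha, fell (34.1 to 39.2 against 46.0 to 91.9 CPM, -0.92 ± 0.24, adjusted p = 0.0287), as did Tnfaip2 (-0.91 ± 0.28, edgeR, adjusted p = 0.0448). Beside these 4 lists, 14% of all tested genes rose and 13.3% fell at 6d.

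Over the 31 libraries, the genes whose log2(CPM + 0.5) followed each member most closely were sought among 13510 genes. Itgam was followed by Ncf1, a subunit of the phagocyte NADPH oxidase (Pearson r = 0.974), and Csf3r, the G-CSF receptor (0.951), and Itgb2 by Dock2 (0.975) and Nfam1 (0.972). Itgax was followed by Lair1 (0.931) and Ctss, the protease cathepsin S (0.917), and Itgal by the lymphoid factor Ikzf1 (0.908) and Cybb (0.903). The endothelial members had looser partners. For Selp these were Saa3, an acute-phase protein (0.823), and Rpain (0.816), for Sele F10 (0.835) and Clec4e (0.830), for Icam1 Il2rg (0.846) and Csf2rb2 (0.845), and for Vcam1 Il7r (0.861) and Cybb (0.853). For Itga4 they were Lrtm1 (0.855) and Mr1 (0.844). Cybb alone was named for more than 1 member. The points of these correlations share library, depth and cell content, and they describe these libraries alone.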

How the data were processed

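Whole left MM was sequenced as stranded poly(A) libraries with 50-base single-end reads. Per the labels and the methods of the study, reads were aligned to mm9 with TopHat2, and the authors deposited HTSeq read counts per gene symbol, 1 table per mouse. Versions, annotation and strand setting are not given in the sources used here, and 5 closing lines per table that name no gene were set aside. The 9 genes and all lists were chosen with earlier results of these data known.

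Counts were tested with edgeR's quasi-likelihood test (edgeR 4.0.16, R 4.3.3) between the libraries of each comparison, with TMM scaling, a minimum of 10 counts in 3 or more libraries, and Benjamini-Hochberg adjustment over all tested genes. P-values judge the difference between groups against the spread between mice. Levels are CPM scaled by TMM, and RPKM used exon lengths of GENCODE vM1. Reads on genes were 14843778 to 29076671 per library (median 20834472). In simulated counts, 200 genes were given a log2 change of 2, and 106 of them were recovered at 1d post-CFA (13944 genes, 1 wrong call), 120 at 2d (14373 genes, 6 wrong) and 147 at 6d post-Col (14281 genes, 7 wrong), and 55 in the earlier interaction (14794 genes, 1 wrong). Log2 fold changes are printed for members that passed or whose groups did not overlap, in any comparison, and from the pathway lists for up to 2 genes per direction with the largest changes that passed at 6d. Alternatives were DESeq2 1.42.0, its size factors, no count filter, 1 fit over 31 libraries, pooled vehicle groups, marker scores as covariates, a fold and RPKM threshold, a replicate block, and leaving out each mouse. Every mouse was left out in turn, and those named in the text were singled out after the data had been seen. A further one, without the 4 libraries with a bone marrow score (mean log2(CPM + 0.5)) above 4.5, was chosen after seeing the data. Where a comparison held only 1 of these 4, it was the same fit as leaving out that mouse.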

Additional observations from a re-analysis of the deposited data

Results flagged for a closer look

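In the groups of 4 mice, 3 of 36 sets of values held 1 mouse far from the other 3 by Dixon's criterion, which chance gives in about 1 of 20. Itgam was 18.6 CPM in mouse 4 at 12d post-Col (10U) and 4.95 to 5.93 CPM in the others, and this mouse also had 1003 CPM of monocyte and macrophage genes. Selp was 8.39 CPM in mouse 3 of the 1C group and 3.34 to 4.10 CPM in the others. Vcam1 was 29.3 CPM in mouse 2 of the 1C group and 14.5 to 17.0 CPM in the others.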

How the results depend on the processing

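Of 186 recomputed values of the 13 fold changes printed for the 9 genes, 0 changed sign, 125 stayed on their side of the threshold, 40 lost it and 21 gained it, and the cause was not tested. A fit that was the same under 2 alternatives is counted under both. The number of the 9 genes that passed moved as follows, with the share of all genes that passed in parentheses. With DESeq2 it was 1 at 1d post-CFA (0.38%), 2 at 5d post-CFA (6.36%), 1 at 2d (23.1%) and 2 at 6d post-Col (10U) (35.6%), and 3 between 6d and 2d (18.7%). In 1 fit over all 31 libraries it was 1 at 2d (31.8%), 0 between 6d and 2d (11.7%), and 2 between 12d and 6d (20.7%). With marker scores as covariates it was 3 at 2d (38%), 5 at 6d (37.1%), 0 between 5d and 1d post-CFA (0.425%), and 2 between 6d and 2d (11%). With both vehicle groups pooled it was 2 at 2d (34.4%), and with fold change and RPKM thresholds 2 between 12d and 6d. Without the 4 libraries with a bone marrow score above 4.5, chosen after seeing the data, it was 5 at 5d post-CFA (15.6%), 7 at 6d (41.5%), 0 between 5d and 1d post-CFA (3.28%), and 1 in the later interaction (19.6%). Libraries that were kept also held bone marrow genes, such as vehicle mouse 1 of the Col experiment with 198 CPM. Leaving out each mouse gave 0 to 5 at 5d post-CFA (0 to 15.6%), 0 to 1 at 2d (0.0843 to 36.3%), 1 to 7 at 6d (5.83 to 41.5%), 0 to 2 between 5d and 1d post-CFA (1.58 to 9.63%), 0 to 5 between 6d and 2d (0.881 to 28.8%), 0 to 7 between 12d and 6d (1.66 to 54.2%), 0 to 1 in the later interaction (3.84 to 18%), and 0 elsewhere. With a block for the replicate number, 1 gene passed at 5d post-CFA (0.927%), 3 at 2d (31.3%), 3 between 6d and 2d (15.2%), 6 between 12d and 6d (49.2%), and 1 at 6d (10.3%). The labels do not say that equal numbers pair mice, and in no comparison did the deviations of all 3 same-numbered pairs correlate above 0.1, so they were taken to share only a number. All 3 were above 0 at 1d post-CFA (r from 0.0821 to 0.448) and between the vehicle groups (0.0928 to 0.639). Sele, at 2 to 83 counts per library, is limited by depth.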
